A study of Homo sapiens with 4 samples.

Results

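The 10 genes of iron uptake, storage and export described here encode the transferrin receptor (*TFRC*), transferrin (*TF*), the divalent metal transporter DMT1 (*SLC11A2*), the iron exporter ferroportin (*SLC40A1*), the ferroxidase ceruloplasmin (*CP*), the heavy and light ferritin chains (*FTH1* and *FTL*), the ferritinophagy receptor *NCOA4* and both iron regulatory proteins (*ACO1*, which encodes IRP1, and *IREB2*, which encodes IRP2). They were chosen by name for these roles, and all 10 were found among the 58288 genes of the expression tables. Cells take up iron bound to transferrin through its receptor, move it across the endosomal membrane through DMT1, store it inside ferritin and release it through ferroportin. When iron is scarce, the iron regulatory proteins bind a hairpin called the iron-responsive element. In the 5' UTR of ferritin or ferroportin mRNA this binding blocks translation, and in the 3' UTR of transferrin receptor mRNA it slows decay of the transcript.

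The study examined transcription driven by the hypoxia-inducible factor HIF1α in renal tubular cells. All samples were HK2, an immortalized line that stems from the proximal tubule of a human kidney. Each had received FG-4592 (roxadustat) in DMSO, at 50 μM for 6 h. The medium was DMEM/F12 with fetal bovine serum. FG-4592 inhibits the prolyl hydroxylases, iron-dependent enzymes that mark HIFα proteins for degradation. RNA-seq was available for 2 libraries and HIF1α ChIP-seq, with an antibody against HIF1α, for 2 replicates. Untreated cells were not analysed here, so every value below is a level or a position under FG-4592 and not a response to it. The labels do not say whether the replicates came from separate cultures, and the spread between them may be technical.

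The proximal tubule label was compared with marker genes of that segment. Of 12 markers, 3 reached a mean of 1 FPKM (fragment density per transcript length and library size), namely *PAX8*, *GGT1* and *SLC5A2*. *PAX8*, a renal lineage factor, was the most abundant, with 121 FPKM in replicate 1 and 114 FPKM in replicate 2. The other markers were under 1 FPKM, and *LRP2*, *SLC22A6*, *SLC22A8* and *HNF4A* were listed at 0 in both libraries. The 12 markers summed to 186 and 174 FPKM. Of 5 epithelial genes, 4 reached 1 FPKM, led by *KRT19* with 184 and 177 FPKM, while *CDH1* had 0.211 and 0.379 FPKM. The cells thus expressed epithelial keratins and *PAX8* but not most transport genes of a differentiated proximal tubule. *LRP2* and *CUBN* encode the endocytic receptors through which proximal tubules recover filtered transferrin, and *CUBN* had 0.0716 and 0.0469 FPKM.

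Of the 10 genes, 8 had a mean of at least 1 FPKM, beside 59.6% of 19659 protein-coding genes. Their levels ranged from rank 2 among all genes to a listed value of 0. In order of mean FPKM the genes were *FTL*, *FTH1*, *TFRC*, *NCOA4*, *ACO1*, *SLC11A2*, *IREB2*, *SLC40A1*, *CP* and *TF*. TPM gave the same order, but it rescales all genes of a library alike and is no independent check. Each gene except *CP* differed from the next lower gene by more than the summed SDs of the pair. *CP* and *TF* were not separated in this way. *FTL* and *FTH1* together took 1.24% of all TPM in replicate 1 and 1.17% in replicate 2.

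**Figure D1:**
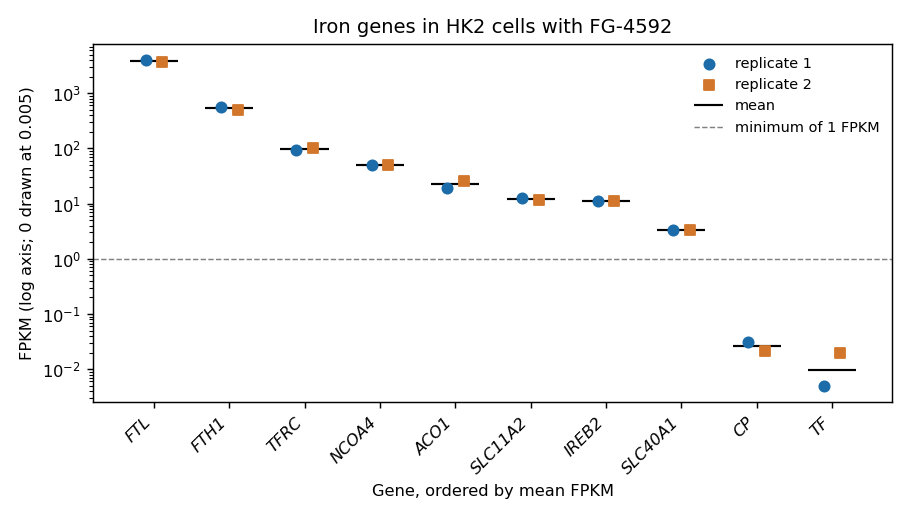
FPKM of the 10 iron genes (log axis) in each of the 2 RNA-seq libraries, with the mean as a bar and the minimum of 1 FPKM as a dashed line. The ferritin light chain lies at the top with a mean of 3831 FPKM, and *CP* and *TF* lie far under the line.

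Among the uptake genes, *TFRC* (ENSG00000072274.12) was the most abundant. It had 94.1 FPKM in replicate 1 and 100.7 FPKM in replicate 2, a mean of 97.4 ± 4.69 FPKM (SD, n = 2), and stood at rank 524 of all genes. *SLC11A2* (ENSG00000110911.14) had 12.7 and 11.7 FPKM, so that the receptor exceeded the endosomal transporter 7.41-fold in replicate 1 and 8.59-fold in replicate 2. By the largest transcript of each library the means were 82.8 FPKM for *TFRC* and 3.53 FPKM for *SLC11A2*, which gives a larger fold. *TF* (ENSG00000091513.14), which encodes the plasma carrier that the liver secretes, was listed at 0 in replicate 1 and at 0.0194 FPKM in replicate 2. That value rested on 0.3 kb of coverage, the product of depth and transcript length. At such values fewer expressing cells and less RNA per cell cannot be told apart. The cells therefore had abundant mRNA for the receptor and almost none for its ligand.

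The export genes were low. *SLC40A1* (ENSG00000138449.10) had 3.36 and 3.37 FPKM, and *TFRC* exceeded it 28.0-fold and 29.9-fold. *CP* (ENSG00000047457.13), whose product oxidizes the iron that ferroportin releases, had 0.0308 and 0.0215 FPKM on 0.662 and 0.382 kb of coverage. Hepatocytes are a main source of *TF* and *CP*. Of 5 hepatocyte genes, *ALB* had 0.0569 and 0 FPKM and *APOA1* and *TTR* were listed at 0, whereas *FGB* had 47.8 and 47.1 FPKM and *SERPINA1* 13.7 and 13.6 FPKM. These 5 genes summed to 61.6 and 60.7 FPKM, nearly all of it from *FGB* and *SERPINA1*.

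Both ferritin chains were the most abundant genes of the set. *FTL* (ENSG00000087086.14) had 3945 FPKM in replicate 1 and 3718 FPKM in replicate 2, a mean of 3831 ± 161 FPKM (SD, n = 2). Only *GAPDH*, with a mean of 7552 FPKM, ranked above it among all genes, and *TMSB10*, *TMSB4X* and *EEF1A1* followed with means of 3449, 3177 and 2855 FPKM. *FTH1* (ENSG00000167996.15) had 569 and 505 FPKM, a mean of 537 ± 44.8 FPKM (SD, n = 2), and stood at rank 81. The light chain exceeded the heavy chain 6.94-fold in replicate 1 and 7.36-fold in replicate 2. By the largest transcript alone, *FTH1* had a mean of 279 FPKM and *FTL* stayed at 3831 FPKM. The size of the excess therefore depends on how transcripts are summed. *NCOA4* (ENSG00000266412.5), whose product delivers ferritin to lysosomes, had 50.4 and 49.0 FPKM. In both libraries light-chain mRNA was thus in excess of heavy-chain mRNA, and both ferritin chains exceeded every uptake and export gene.

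Ferritin genes have many processed copies in the genome, and reads can be divided among them. The tables listed 25 copies named after *FTH1*, of which 6 reached 1 FPKM. *FTH1P2* was the highest with 7.61 and 6.81 FPKM. All 25 copies summed to 21.9 and 21.3 FPKM, or 3.85% and 4.22% of *FTH1* itself. The 14 copies of *FTL* in the tables summed to 2.48 and 2.28 FPKM, most of it from *FTLP3* with 2.34 and 2.10 FPKM. Adding the copies left the order of the 8 genes at or above 1 FPKM as it was. Below it, *TF* together with its copy *TFP1* had a mean of 0.0452 FPKM and passed *CP* with 0.0262 FPKM.

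Of the control genes, *ACO1* (ENSG00000122729.18) had 18.9 and 25.5 FPKM and *IREB2* (ENSG00000136381.12) had 11.2 and 11.4 FPKM. *ACO1* exceeded *IREB2* 1.69-fold and 2.25-fold. *SLC11A2* lay just above *IREB2* by summed FPKM, with a difference of 0.945 FPKM in the means. By the largest transcript of each library this order turned, with means of 3.53 FPKM for *SLC11A2*, over a different transcript in each library, and 7.83 FPKM for *IREB2*. The largest *SLC11A2* transcript by mean, ENST00000550782.5, had 2.27 FPKM. These neighbours are therefore close and their order depends on how transcripts are summed.

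The 8 genes at or above 1 FPKM differed little between the libraries. Their median absolute log2 ratio, computed from FPKM + 1, was 0.09, beside 0.12 for 11726 protein-coding genes at the same minimum. *ACO1* differed most. Its log2 ratio of replicate 2 to replicate 1 was 0.42, while the 90th percentile of absolute ratios over protein-coding genes was 0.37. *FTH1* followed with -0.17. *ACO1* has a pair of main transcripts with different 3' ends. The longer one, ENST00000309951.7 with 7466 bases, had 12.2 FPKM in replicate 1 and 4.79 FPKM in replicate 2. The shorter one, ENST00000379923.5 with 3601 bases, had 6.07 and 20.7 FPKM. Total coverage of the gene was 636 kb in replicate 1 and 575 kb in replicate 2, and the log2 ratio of coverage scaled to the library was -0.06. In replicate 2 *ACO1* thus had the higher FPKM, the lower coverage and the larger share of FPKM in the shorter transcript, and the cause of the difference was not tested.

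**Figure D2:**
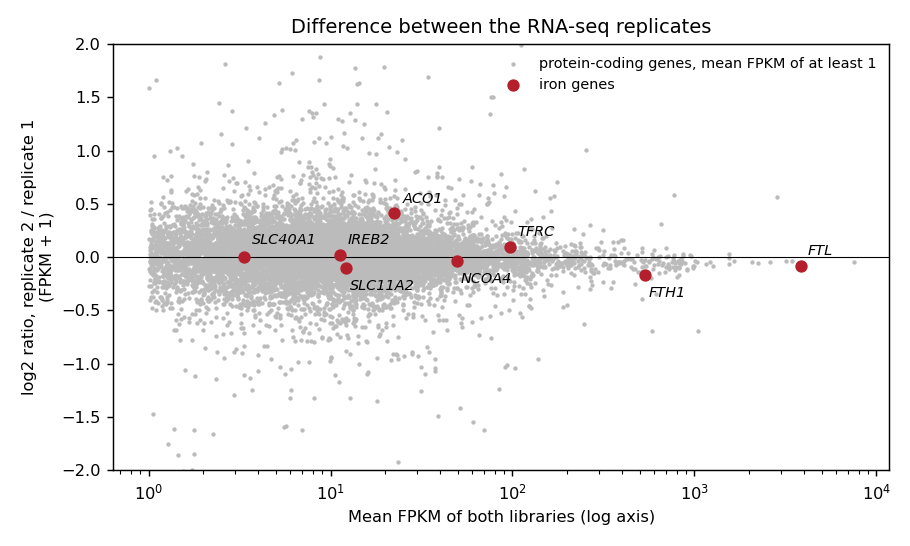
Log2 ratio of replicate 2 to replicate 1 (FPKM + 1) against the mean FPKM of both libraries (log axis) for 11726 protein-coding genes, with 8 iron genes marked. *ACO1* lies highest of the marked genes at 0.42, and 11 genes lie outside the drawn range.

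The transcripts were searched for iron-responsive elements, since these hairpins are the sites where the products of *ACO1* and *IREB2* bind. A match was a C, any 5 bases, the loop CAGTGN and 5 bases able to pair with those before the loop, G-T pairs allowed, on the sense strand of GENCODE 44 transcripts. Of the 10 genes, 5 had a match (*TFRC*, *TF*, *SLC40A1*, *FTH1* and *FTL*), beside 2.18% of protein-coding genes. The match of *TF* lay in a 3' UTR extension that its transcript in the expression tables lacks, so 4 genes carried matches within the measured transcripts. With 1 mismatch allowed in the stem, 8 genes had a match, beside 14.6% of protein-coding genes, and *SLC11A2*, *ACO1* and *IREB2* were added. *CP* and *NCOA4* had none by either rule. A match is a description of the letters and not a measured binding site. The rule allows no other loop and no extra unpaired base in the stem. A gene without a match may therefore still carry an element.

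The sequences are shown because the placement of the hairpin differs between uptake genes and storage or export genes. Each is 27 bases on GRCh37, written 5' to 3' on the strand of the gene, with the loop in capitals. *TFRC* had 4 matches, all in the 3' UTR on the minus strand, at chr3:195777851-195777877, chr3:195777447-195777473, chr3:195777382-195777408 and chr3:195777335-195777361, labelled A to D in that order. These letters give only the order of the matches and are not the established names of *TFRC* elements. Hairpins with another loop were not sought, so 4 need not be the total for this gene. *SLC40A1* had 1 in the 5' UTR at chr2:190445388-190445414 (minus strand), and *FTL* had 1 in the 5' UTR at chr19:49468593-49468619 (plus strand). The match of *SLC11A2*, with its mismatch, lay in the 3' UTR at chr12:51382053-51382079 (minus strand).
TFRC A: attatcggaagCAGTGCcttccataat
TFRC B: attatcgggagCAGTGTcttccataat
TFRC C: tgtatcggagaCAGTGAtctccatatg
TFRC D: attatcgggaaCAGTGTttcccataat
SLC40A1: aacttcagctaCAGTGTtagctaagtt
FTL: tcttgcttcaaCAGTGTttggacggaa
SLC11A2: gccatcagagcCAGTGTgtttctatgg
Within *TFRC* the pairs shared 17 to 25 of 27 bases, and *FTL* and *SLC40A1* shared 13. The lower stem, the 5 bases outside the bulged C, was compared in a fixed alignment without gaps. It paired completely in all 4 matches of *TFRC* and in *SLC40A1*, and 4 of 5 bases paired in *FTL*. In the *SLC11A2* sequence 1 of 5 paired in this alignment. More of its bases could pair if a base after the loop were left unpaired, so this count does not show a weak stem. The matches found in the uptake receptor thus lay after the coding sequence, and those of the ferritin light chain and the exporter lay before it.

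Most mRNA of these genes was assigned to transcripts that hold the hairpin. For *TFRC* such transcripts had 87.2 FPKM in replicate 1 and 94.8 FPKM in replicate 2, or 92.6% and 94.1% of the gene. The single transcript of *FTL* and all expressed transcripts of *SLC40A1* held it, so the share was 100% in both libraries. *FTH1* was different. Its transcripts with the hairpin had 378 and 384 FPKM, or 66.5% and 76.0% of the gene. Most of the remainder belonged to ENST00000532601.1, a transcript of 742 bases without the hairpin, with 188 and 118 FPKM. The level with the hairpin was therefore nearly the same in both libraries, and the difference in *FTH1* lay in the transcript without it.

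*SLC11A2* is known for alternative last exons, some with an iron-responsive element and some without. Transcripts holding its match with 1 mismatch had 4.81 and 4.71 FPKM, or 37.8% and 40.2% of the gene. That sum includes ENST00000262052.9, with 0.0180 FPKM in replicate 1 and 3.58 FPKM in replicate 2. It also includes ENST00000550782.5, annotated as a retained intron, with 3.47 and 1.07 FPKM. A further 1.84 and 2.06 FPKM came from a transcript whose sequence could not be assigned to either class. Transcripts without the match had 6.06 and 4.95 FPKM. The sum with the match thus differed less between the libraries than ENST00000262052.9 or ENST00000550782.5 alone, and less than the sum without it.

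**Figure D3:**
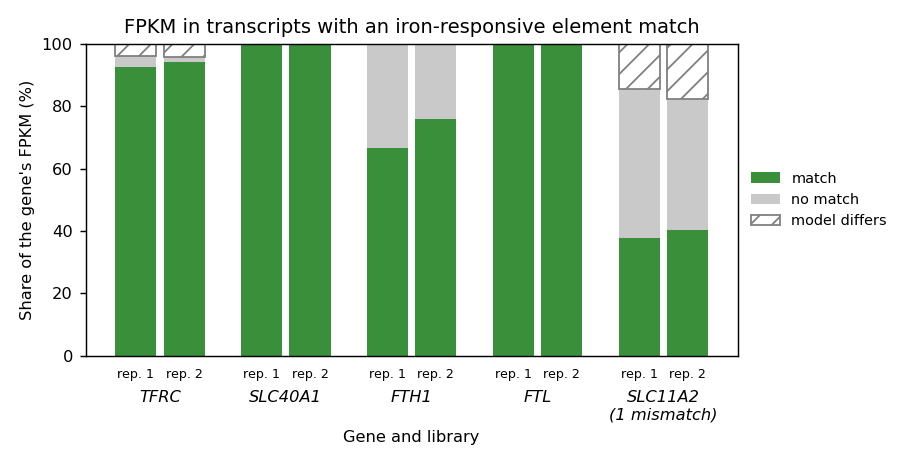
Share of each gene's FPKM (percent) in transcripts with a match to the iron-responsive element, without one, or with a transcript model that differs from GENCODE 44, for each of the 2 libraries. *FTH1* and *SLC11A2* divide between classes, with 66.5% and 76.0% of *FTH1* and 37.8% and 40.2% of *SLC11A2* in transcripts with a match.

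HIF1α peaks were called by the authors separately in each replicate and give positions on hg19 without scores. Replicate 1 held 1689 peaks and replicate 2 held 16953. A promoter peak, one within 1 kb of any annotated start site, was present at 1 of the 10 genes in replicate 1 (*TFRC*), beside 5.49% of protein-coding genes. In replicate 2 there were 3 (*FTH1*, *FTL* and *TF*), beside 14.0%, and no gene had one in both replicates, beside 1.79%. Among the 8 genes with at least 1 FPKM the counts were 1, 2 and 0, beside 8.60%, 20.0% and 2.87% of protein-coding genes at that minimum.

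The *TFRC* peak of replicate 1 spanned chr3:195808844-195809218 on GRCh37 and covered the first start site of the gene, with its centre 7 bp from that site. *TFRC* lies on the minus strand at chr3:195739382-195809024. Peaks were searched for the core of the hypoxia response element, ACGTG or GCGTG on either strand, within 100 bp of the centre. The *TFRC* peak held 1 core, 16 bp from its centre, and 86.0% of the peaks of replicate 1 held one in the same window. In the 300-base promoter windows of RefSeq (GRCh38.p14, 250 bases before and 50 after a start site), *TFRC* had 1 core, at position -88 relative to the RefSeq start. Of 14 such windows for 8 of the genes, 8 held a core, beside 48.4% of all windows.

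*CP* was the other gene with a peak of replicate 1 within 10 kb, at chr3:148943045-148943278, 3429 bp upstream of the gene at chr3:148880197-148939616 on the minus strand. No start of another protein-coding gene was closer to it. The peak lay outside protein-coding gene bodies, with 28 bases of the stretch printed for it in annotated exons. The peak held 2 cores, the nearer 16 bp from the centre, although *CP* itself was under 0.1 FPKM in both libraries. A peak 57923 bp upstream of *FTH1*, at chr11:61793029-61793357, was outside all annotated exons and held a core 15 bp from its centre, and the *FTH1* start was the closest start of a protein-coding gene. The last peak of replicate 1 within 100 kb of these genes lay at chr19:49496634-49497073, 26498 bp from *FTL*. It covered the start of *RUVBL2*, which was 20 bp from the peak centre. All 4 peaks held a core within 100 bp of the centre, and none overlapped a peak of replicate 2, beside 20.4% of all peaks of replicate 1 that did. The core nearest the centre is shown in capitals for the first 3 peaks, on the strand of the gene, because no start of another protein-coding gene was closer to these peaks. The stretches are chr3:195809033-195809061 for *TFRC*, chr3:148943127-148943227 for *CP* and chr11:61793128-61793228 for *FTH1*.
TFRC peak: cctcgcgagcgtACGTGcctcaggaagtg
CP peak: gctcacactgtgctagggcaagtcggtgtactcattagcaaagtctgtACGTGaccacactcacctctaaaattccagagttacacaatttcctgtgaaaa
FTH1 distal peak: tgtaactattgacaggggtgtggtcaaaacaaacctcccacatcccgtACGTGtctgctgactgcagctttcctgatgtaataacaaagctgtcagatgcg
All 3 cores read ACGTG on the strand of the gene.

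In replicate 2, 16 peaks lay in or at the promoters of 8 of the 10 genes, and they lay mainly in exons. At least 90% of the bases were exonic in 13 of the 16, beside 72.2% of all peaks of replicate 2 and 14.2% of those of replicate 1. Of the 8 genes with at least 1 FPKM, 7 had an exon peak in replicate 2, beside 50.3% of protein-coding genes at that minimum, and *SLC11A2* had none. *FTL* and *FTH1* were among the protein-coding genes with at least 100 FPKM, of which 76.8% had an exon peak. *CP* and *TF*, both under 1 FPKM, had no exon peak, beside 10.7% of such genes. In replicate 1 only *TFRC* had an exon peak, at its first exon, beside 6.84% of protein-coding genes with at least 1 FPKM and 0.756% of those under it. A core lay within 100 bp of the centre in 4 of the 16 peaks of replicate 2, beside 26.6% of all its peaks.

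By the peak centre, 9 of the 16 peaks lay in a 3' UTR, 4 in a coding exon, 2 in a 5' UTR and 1 in an intron. The same counts over all peaks of replicate 2 are not given, so these places describe the 16 peaks and no trait of the iron genes. *TFRC* had 3 peaks in replicate 2, all in its 3' UTR, at chr3:195776277-195777485, chr3:195777668-195778395 and chr3:195778582-195778956, and none at its start. The first pair contained all 4 iron-responsive element matches. *IREB2* also had 3 peaks in its 3' UTR, and they covered 24.7% of the exon bases of the gene. *NCOA4* had a peak in a coding exon at chr10:51584764-51585520 and one in the 3' UTR at chr10:51589295-51590605, together covering 51.9% of its exon bases. *SLC40A1* had one in the 3' UTR and one in a coding exon, and *ACO1* had a single peak of 300 bp in the 3' UTR. Peaks of replicate 2 covered 32.4% of the exon bases of *FTH1*, 18.8% of *SLC40A1*, 13.3% of *TFRC* and 3.97% of *ACO1*. No such share over other genes is given. *FTL* had a peak over its start site at chr19:49468542-49468914 and another in its last coding exon at chr19:49469825-49470140, covering 68.7% of its exon bases. *FTH1* had peaks at chr11:61734750-61735127, over its start, and at chr11:61732059-61732385, over a coding exon that overlaps the *BEST1* gene body. The start-site peaks of both ferritin genes contained their iron-responsive element matches, so that 6 of 8 matches, 4 of them in the 3' UTR of *TFRC*, lay inside a peak of replicate 2 and none inside a peak of replicate 1. Over all protein-coding genes, 9.09% of 440 matches lay inside a peak of replicate 2 and 0.227% inside one of replicate 1, and for genes with at least 1 FPKM the shares were 12.1% and 0.303% of 330. By gene, the matches inside peaks belonged to *TFRC*, *FTH1* and *FTL*, the 3 genes of the set with a match and at least 50 FPKM. Of all 34 protein-coding genes with a match at that level, which was chosen after seeing the data, 35.3% had one inside a peak of replicate 2 and 0.00% inside one of replicate 1.

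*TF* had the only replicate 2 peak of the set without exon bases, at chr3:133486097-133486393 in an intron, 483 bp from an internal start site and with no core in it. *SLC11A2* had no peak in or at the gene, with 33167 bp to the nearest peak of replicate 2 and 1090181 bp to that of replicate 1. Of the *FTH1* copies, 6 of 25 had a peak in replicate 2 and none in replicate 1, and of the *FTL* copies 3 of 16 and none, beside 14.9% and 0.0397% of all 10087 processed pseudogenes. These copies were counted in GENCODE 44 on GRCh37, which lists 16 copies of *FTL* where the expression tables list 14. The 6 *FTH1* copies with a peak were *FTH1P2*, *FTH1P7*, *FTH1P8*, *FTH1P10*, *FTH1P11* and *FTH1P20*.

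**Figure D4:**
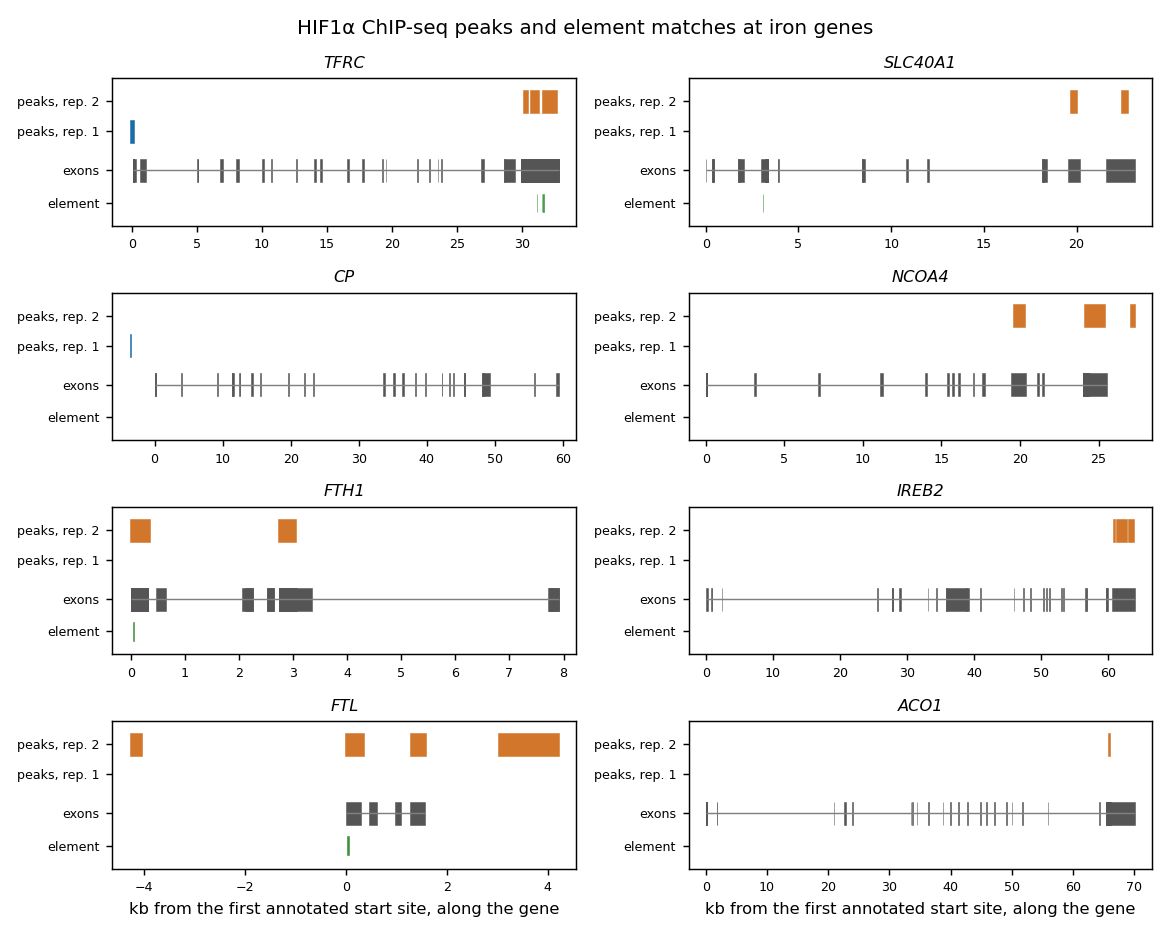
HIF1α peaks of replicate 1 (blue) and replicate 2 (orange), exons of protein-coding transcripts (grey) and iron-responsive element matches without mismatch (green) at 8 of the genes, by distance in kb from the first annotated start site along the gene. The replicate 1 peak of *TFRC* lies at the start of the gene and its 3 replicate 2 peaks lie at the end of the protein-coding transcripts drawn.

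The wider pathway was described with 40 other iron genes, of which 28 reached 1 FPKM, beside 59.6% of protein-coding genes. In uptake and reduction it was 9 of 13, led by *MELTF* (melanotransferrin) with 51.8 and 49.6 FPKM and *SLC39A14* (the zinc and iron importer ZIP14) with 43.7 and 42.6 FPKM. *TFR2*, the second transferrin receptor, had 17.0 and 15.8 FPKM. *CYBRD1*, a ferric reductase, had 9.15 FPKM in replicate 1 and 26.4 FPKM in replicate 2, a log2 ratio of 1.43 that exceeded 99.6% of protein-coding genes at the minimum in size. In export and systemic control only *ERFE* (7.15 and 7.97 FPKM) and *HFE* (2.89 and 3.24 FPKM) of 8 genes reached the minimum, and *HAMP*, *HEPH* and *HJV* were listed at 0.

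Of the 5 genes for storage and delivery, *PCBP2* (222 and 227 FPKM) and *PCBP1* (128 and 123 FPKM), which encode iron chaperones that load ferritin, were the most abundant, and the mitochondrial ferritin gene *FTMT* was listed at 0. *FBXL5*, whose product marks IRP2 for degradation, had 39.9 and 38.9 FPKM, and *HERC2*, which acts on *NCOA4*, had 14.1 and 10.8 FPKM. All 6 heme iron genes and all 6 mitochondrial iron genes reached 1 FPKM. *HMOX1*, whose product frees iron from heme, led the former with 111 and 117 FPKM, and *ISCU*, a scaffold for iron-sulfur clusters, led the latter with 27.1 and 25.5 FPKM. For reference, *HIF1A* had 110 and 114 FPKM, *EPAS1* had 27.3 and 42.4 FPKM and *ARNT* had 7.80 and 8.20 FPKM. Erythroid genes, which would mark the main iron consumers of the body, included *HBA1* with 5.98 and 7.22 FPKM and *HBA2* with 4.90 and 6.01 FPKM, while *HBB* was listed at 0 in both libraries and *ALAS2* had 0 and 0.0269 FPKM. Of 5 macrophage genes, which mark the cells that recycle iron, only *CSF1R* reached it, with 4.58 and 4.56 FPKM, and *PTPRC*, *CD163* and *AIF1* were listed at 0. These summed to 5.15 and 5.11 FPKM.

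**Figure D5:**
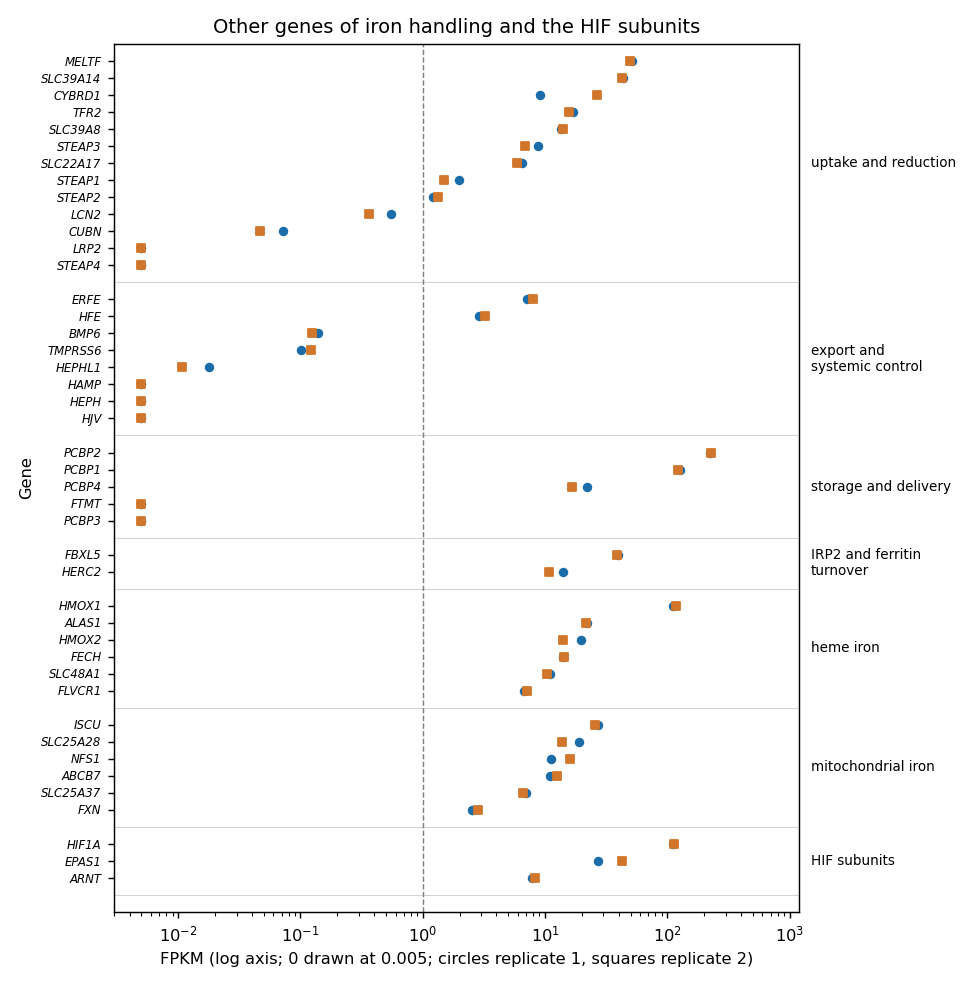
FPKM (log axis) of 40 other iron genes by role and of 3 HIF subunits in replicate 1 (circles) and replicate 2 (squares), with values of 0 drawn at the left edge and the minimum of 1 FPKM dashed. *CYBRD1* differs most between the libraries, with 9.15 and 26.4 FPKM.

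Promoter peaks were present at 5 of the 40 other iron genes in replicate 1 (*TFR2*, *PCBP1*, *HMOX2*, *SLC25A37* and *NFS1*), at 7 in replicate 2 and at 3 in both (*PCBP1*, *HMOX2* and *SLC25A37*), beside 5.49%, 14.0% and 1.79% of protein-coding genes. In none of these 3 did the peaks of the replicates overlap, beside 51.9% of the 351 protein-coding genes with a promoter peak in both. The *TFR2* peak, at chr7:100230805-100231592, held 8 cores. Of the 5 genes, all but *NFS1* had a core within 100 bp of the centre of a replicate 1 peak, beside the 86.0% of all its peaks. *HMOX1* had no promoter peak in either replicate. Of these 40 genes and the 3 HIF subunits, only *SLC39A14* had an iron-responsive element match without mismatch, beside 2.18% of protein-coding genes. Because the rule is strict, a missing match does not show that a gene, such as a HIF subunit, lacks an element.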

How the data were processed

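The authors aligned ChIP-seq reads to hg19 with Bowtie2 and called peaks with MACS2 in each replicate; the version, threshold and control library are not given in the sources used here. For RNA-seq the authors used HISAT2 and StringTie 1.3.3 with GENCODE 27 and deposited FPKM, TPM and coverage of each transcript. The paper names hg19 for this mapping, while the deposited tables hold GRCh38 coordinates. No read counts were used. Depth was taken as the sum of coverage times transcript length (4442 and 4202 Mb). The FPKM of a gene is the sum of its transcripts, and it was joined to the GRCh37 genome and GENCODE 44 by Ensembl identifier. Elements were searched in all GENCODE 44 transcripts. A measured transcript was counted as with or without a match only where its lengths in both annotations differed by at most 150 bases. Peaks on unplaced contigs were left out of the core search, which used 1661 and 16648 peaks.

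All samples had the same treatment, so no test was made. With 2 libraries the SD is imprecise. The members and lists were chosen with earlier results of these data known. Genes named were the members, the fixed lists, the highest copies, genes nearest to peaks within 100 kb, and the 5 highest genes; *BEST1* and the copies with peaks were named after their values were seen. Scans were tested on simulated data. Python 3.11.15, numpy 2.4.6, pandas 2.3.3, pysam 0.24.0 and matplotlib 3.10.9 were used. A marker gene and an element sequence are not reported here.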

Additional observations from a re-analysis of the deposited data

How the results depend on the processing

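Of 30 recomputed counts, 22 stayed within 1.5 times the main count. The number of genes at or above the FPKM minimum was 8 to 8 when either library was left out. Promoter windows of 10 kb gave 2 genes in replicate 1, 6 in replicate 2 and 1 in both, beside 8.12%, 37.7% and 4.94% of protein-coding genes, and windows of 3 kb gave 1 in both, beside 2.66%. The latter gene is *TFRC*, whose replicate 2 peaks lie in the 3' UTR near an internal start and do not overlap its replicate 1 peak. Without peaks that hold exon bases, 0 genes remained in replicate 1 and 1 in replicate 2. The share of all protein-coding genes under this filter is not given, so these counts say nothing particular about the 10 genes. A core within 50 bp of the centre was found in 2 of the 16 peaks of replicate 2, and the share of all its peaks at that distance is not given. Allowing 1 mismatch gave 8 genes with an iron-responsive element match. Of 85 values of single genes, 72 stayed within a tolerance, 11 moved by more and 2 changed sign. The tolerance was 1 SD between libraries for FPKM and shares, which leaving out a library cannot exceed, the median absolute log2 ratio of expressed protein-coding genes (0.120) for log2 ratios, and no change for the order. TPM rescales all genes of a library alike, so it could not change the shares or the order within a library. By bases of coverage the log2 ratio between libraries was -0.063 for *ACO1* and 0.15 for *SLC11A2*. The cause was not tested. Limiting element matches to measured transcripts, chosen after seeing the data, gave 4.

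No paired analysis was possible because all samples share 1 treatment and no groups were compared. The peak lists give no depth or score, so a missing peak says nothing about weak binding, and values of *CP* and *TF* rest on under 1 kb of coverage.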
